A study of Mus musculus with 2 samples.

Results

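Granzymes, perforin and Nkg7 were taken as a set of 9 genes, matched by symbol among the 32285 genes of the count tables. Gzma, Gzmb, Gzmc, Gzmd, Gzme, Gzmf and Gzmk encode granzymes, Prf1 encodes perforin and Nkg7 encodes a membrane protein of the cytotoxic granule. Their raw counts of unique molecular identifiers (UMIs, which mark single captured RNA molecules) were summed over CD8 T, CD4 T, dividing T, gamma delta T and NK cells of each library and expressed per 1000000 UMIs of that class (CPM).

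The cells came from ovarian tumors of female C57BL/6 mice, 6 to 8 weeks of age, in which an abraded peritoneal wall was seeded with syngeneic ovarian cancer cells of the genotype p53-/-, myc, Hras. One arm was given control IgG and the other an Activin A neutralizing antibody, by daily intraperitoneal injection from the day after the cells. The labels give 7 and 8 mice, respectively, and 10 days of treatment. For its single-cell experiment the study describes other group sizes and a shorter treatment. Tumor tissue from the abrasion site was pooled over mice into 1 library per group, with no selection of cell types. Both arms carried the same surgery and cancer cells, and the effect of the antibody cannot be told apart from handling or sequencing of 1 library against the other.

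Granzymes are serine proteases that cytotoxic T cells and NK cells store in lytic granules together with perforin. On contact with a target cell the granules are released into the synapse, perforin opens pores in the target membrane, and granzymes enter and cleave proteins of the target. Granzyme B cleaves after aspartate and activates caspases, granzyme A cleaves after basic residues, and granzymes C to F are rodent relatives of granzyme B encoded beside it.

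With 1 library per group no test between the groups is possible. All intervals given here are 95% intervals that cover counting error only, and they are too narrow wherever a few cells hold most of a gene's UMIs. UMIs numbered 98174850 with control IgG and 74117462 with the antibody, and 8770 and 6386 barcodes, respectively, were kept as cells. Of the kept cells, 19 barcodes occurred in both libraries, and 5 of those fell in the 5 lymphocyte classes in both. The CD8 T class held 2006 cells with control IgG and 1822 with the antibody, the CD4 T class 682 and 563, the dividing T class 1376 and 827, the gamma delta T class 145 and 105, and the NK class 325 and 367. Median depth per cell was lower with the antibody in all 5 classes, with 4360 and 4007 UMIs in CD8 T cells, 10251 and 9309 in dividing T cells and 3637 and 3406 in NK cells.

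The class names were checked against markers that the gates did not use. Tyrobp, an adaptor of NK receptors, was at 1639 CPM with control IgG and 1646 CPM with the antibody in NK cells, and at 37.6 and 47.2 CPM in CD8 T cells. Cd40lg, a marker of helper T cells, was at 79.4 and 101 CPM in CD4 T cells and at 2.43 and 3.85 CPM in CD8 T cells, with no UMI in NK cells. The gamma delta T class held Tcrg-C1 at 148 and 149 CPM, against at most 5.04 CPM in the other classes, and it also held Tyrobp at 298 CPM with control IgG and 434 CPM with the antibody. All 5 gamma delta markers were counted in this class in both libraries. Dividing markers (Stmn1, Tubb5, Hmgb2 and Pclaf) summed to 6978 and 6741 CPM in dividing T cells, against at most 2084 CPM in the other classes. The CD8 list (Trac, Trbc2, Cd27 and Ccl5) summed to 16968 and 17690 CPM in CD8 T cells. It also summed to 7558 and 8777 CPM in NK cells, so it is not particular to CD8 T cells. Markers of other lineages (Lyz2, Cd79a, Col1a1, Krt18 and Hbb-bs) summed to between 19.0 and 421 CPM over classes and libraries. Lyz2, a myeloid gene, stood at 413 CPM in gamma delta T cells of the control IgG library against 5.43 CPM with the antibody, and at 67.5 and 129 CPM in NK cells.

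Granzymes B to F belong to 1 cluster. In the GENCODE M21 annotation (GRCm38) the 7 genes Gzme, Gzmd, Gzmg, Gzmn, Gzmf, Gzmc and Gzmb follow each other over 145 kb of chromosome 14, all on the minus strand, from Gzme at chr14:56117626-56120625 to Gzmb at chr14:56258838-56262260. Gzma (chr13:113093825-113100981) and Gzmk (chr13:113171608-113225908) are neighbours on chromosome 13. Prf1 lies at chr10:61297833-61304680 and Nkg7 at chr7:43437073-43438249.

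The 250 bases before the RefSeq start of 7 members are printed below. Gzma, Gzmb, Gzmk, Prf1 and Gzmc are shown because they had the most UMIs among the granzymes and perforin, and Gzmd and Gzme because their promoters were nearly the same and they were counted in the same cells. The sequences are from RefSeq (GRCm38.p6) and read 5′ to 3′ on the strand of the gene. Capitals mark TGTGGT and its reverse complement ACCACA, the core letters of the motif bound by Runx factors.
Gzma (chr13:113100982-113101231, minus strand): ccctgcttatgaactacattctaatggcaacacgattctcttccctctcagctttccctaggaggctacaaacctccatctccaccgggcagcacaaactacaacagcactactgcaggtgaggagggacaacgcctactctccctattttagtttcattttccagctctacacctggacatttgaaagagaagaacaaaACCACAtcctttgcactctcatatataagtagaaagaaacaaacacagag
Gzmb (chr14:56262335-56262584, minus strand): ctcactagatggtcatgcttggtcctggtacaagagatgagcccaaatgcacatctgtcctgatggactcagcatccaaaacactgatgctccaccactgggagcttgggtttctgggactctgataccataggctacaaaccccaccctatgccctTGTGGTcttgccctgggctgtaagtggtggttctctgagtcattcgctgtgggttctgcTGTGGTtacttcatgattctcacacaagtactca
Gzmc (chr14:56234658-56234907, minus strand): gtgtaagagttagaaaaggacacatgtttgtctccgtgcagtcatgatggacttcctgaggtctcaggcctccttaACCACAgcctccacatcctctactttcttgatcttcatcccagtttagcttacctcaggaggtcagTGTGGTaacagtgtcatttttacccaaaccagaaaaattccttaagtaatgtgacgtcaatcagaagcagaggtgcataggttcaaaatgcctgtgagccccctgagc
Gzmd (chr14:56132594-56132843, minus strand): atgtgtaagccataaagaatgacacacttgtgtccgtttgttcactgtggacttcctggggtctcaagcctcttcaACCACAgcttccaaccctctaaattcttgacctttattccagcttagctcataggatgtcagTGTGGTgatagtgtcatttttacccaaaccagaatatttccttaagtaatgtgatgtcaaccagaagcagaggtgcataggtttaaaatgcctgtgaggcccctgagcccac
Gzme (chr14:56120626-56120875, minus strand): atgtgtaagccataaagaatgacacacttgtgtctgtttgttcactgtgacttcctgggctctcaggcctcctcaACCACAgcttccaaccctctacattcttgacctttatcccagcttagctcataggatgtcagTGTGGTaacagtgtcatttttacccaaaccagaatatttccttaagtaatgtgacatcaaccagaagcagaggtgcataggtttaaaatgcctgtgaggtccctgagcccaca
Gzmk (chr13:113180966-113181215, minus strand): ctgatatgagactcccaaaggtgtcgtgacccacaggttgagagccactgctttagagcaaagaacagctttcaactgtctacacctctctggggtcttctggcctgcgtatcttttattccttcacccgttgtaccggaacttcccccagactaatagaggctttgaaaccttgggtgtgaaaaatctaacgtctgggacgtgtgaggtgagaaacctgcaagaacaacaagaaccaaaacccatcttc
Prf1 (chr10:61297586-61297835, plus strand): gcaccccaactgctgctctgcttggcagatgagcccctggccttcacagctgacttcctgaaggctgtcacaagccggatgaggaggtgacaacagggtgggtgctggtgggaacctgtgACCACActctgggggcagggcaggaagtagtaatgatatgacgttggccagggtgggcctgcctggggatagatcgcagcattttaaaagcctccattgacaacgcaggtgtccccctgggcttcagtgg

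Windows of 300 bases, from 250 bases before the start to 50 after it, were found for 9 of 9 members. TGTGGT or ACCACA occurred in 8 of the 9 member windows, all but that of Gzmk, and in 16.8% of 32851 windows of all genes. The Gzmk window, set by the RefSeq start, lies inside the GENCODE span of the gene given above. The bases before the GENCODE start of Gzmk were not searched. The cluster genes Gzmb, Gzmc, Gzmd, Gzme and Gzmf each held 2 copies. In pairs, the windows of Gzmc, Gzmd, Gzme and Gzmf were 74.6% to 93.4% identical, so these genes are not separate cases beside the share of all windows. Those of Gzmb began 34 and 93 bases before its RefSeq start, and those of Gzmc 108 and 174 bases before its own. For Gzmb the 2 annotations differ: the printed RefSeq bases end at chr14:56262335, and the GENCODE gene begins further downstream, at chr14:56262260. The distances therefore depend on the annotated start and were not compared between the promoters. Gzma held 1 copy 50 bases before its RefSeq start, Nkg7 83 and Prf1 130. None of these 13 copies overlapped a match to the other motifs searched.

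On both strands, 7 other motifs were searched in the same windows. The ETS letters CAGGAAG were in 6 of 9 member windows, among them the related Gzmc, Gzmd, Gzme and Gzmf, and in 13.3% of all windows. T-box letters GGTGTGA were in Gzmk and Nkg7 (3.98% of all windows), AP-1 letters TGANTCA in Gzmb (7.81%) and CRE letters TGACGTCA in Gzmc and Gzmf (1.79%). STAT letters TTCNNNGAA were in 2 member windows (8.30% of all), NFAT letters GGAAAA in 1 (23.4%) and the E-box CANNTG in 9 (72.3%). These matches describe letters in a window and are not measured binding sites.

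Over both libraries the 5 classes together held 92.4% of all Gzma UMIs of kept cells, 92.2% of Gzmb, 90.2% of Gzmk, 90.1% of Prf1, 89.3% of Nkg7 and 78.7% of Gzmc. Most of the remainder lay in T cells that passed no CD4, CD8 or Trdc gate and in cells outside the lymphocyte gates. B cells and C1q macrophages, which should lack the granule genes, had them at background. Gzma was at 3.31 and 8.29 CPM in B cells and at 6.62 and 4.78 CPM in C1q macrophages, with median depths of 2862 and 2764 UMIs in B cells.

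The members differed in which class led. NK cells had the highest Gzma, Gzmc and Prf1 levels in both libraries, and CD8 T cells had the highest Gzmb. For Gzmk, CD8 T and dividing T cells led and overlapped within counting error in both libraries. For Nkg7, CD8 T and NK cells did not differ beyond counting error with control IgG, and CD8 T cells were 1.13-fold above NK cells with the antibody. CD4 T cells were lowest in Gzma and Prf1 in both libraries.

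**Figure D1:**
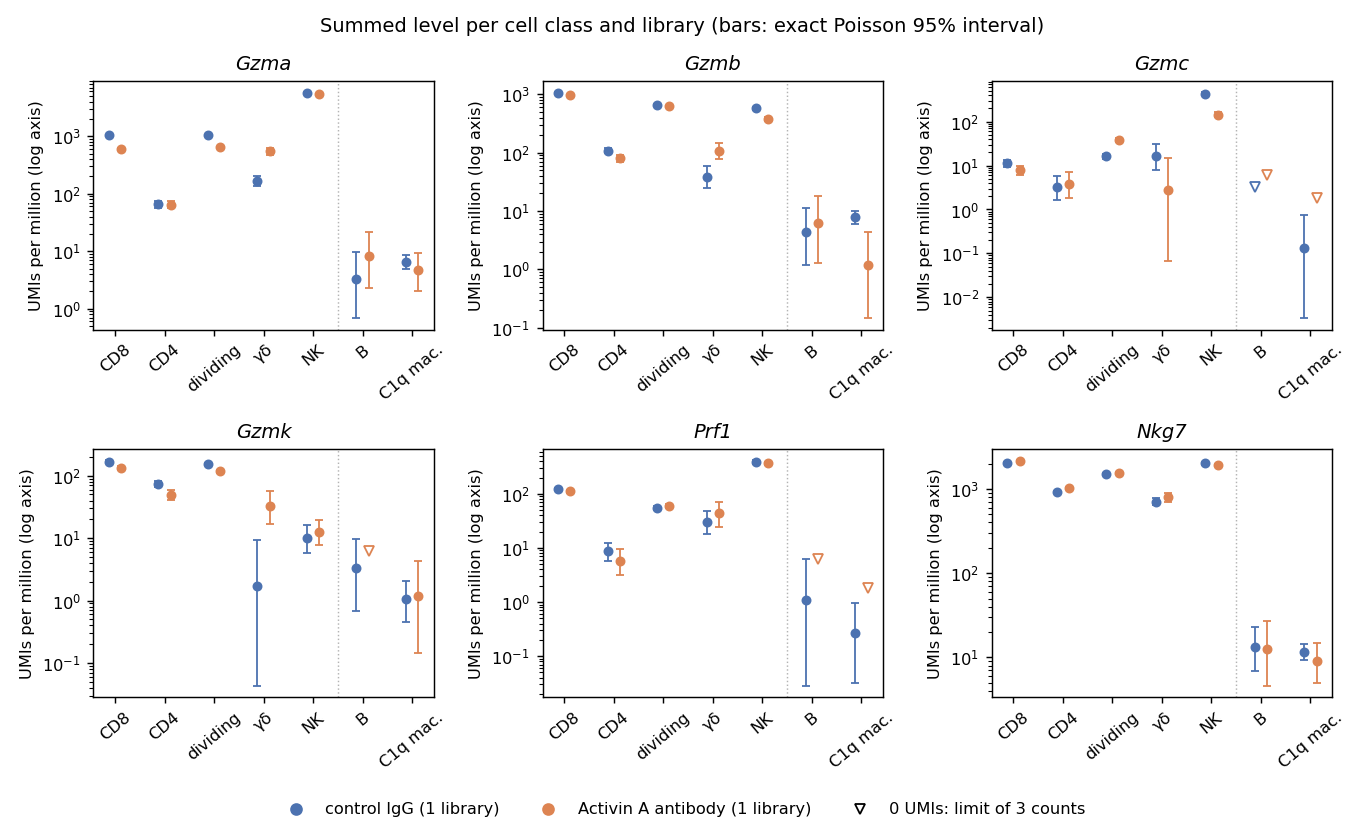
Summed level (CPM, log axis) of 6 members in the 5 lymphocyte classes and, right of the dotted line, in B cells and C1q macrophages, 1 point per library with its exact Poisson 95% interval, and a triangle at the 3-count limit where no UMI was counted. Gzma lay at 5673 and 5362 CPM in NK cells, and all 6 members in CD8 T cells lay above their B cell and macrophage levels. For Gzmc with the antibody, however, the CD8 T interval (6.01 to 10.0 CPM) overlapped that of B cells, whose 0 UMIs allow up to 7.64 CPM.

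In CD8 T cells, Gzma was lower with the antibody and the other granule genes differed less. None of the 6 members with at least 20 UMIs passed 2-fold in CD8 T cells (0 of 6), against 2.85% of the 11987 genes counted there (1.16% higher and 1.69% lower), and the median log2 ratio was -0.24 for these members and 0.03 for all genes. In CD4 T cells it was likewise 0 of 6, against 3.56% of 10286 genes (1.61% higher and 1.94% lower). In dividing T cells 1 of 6, Gzmc, was past 2-fold and higher (3.54% of 12497 genes in either direction, 1.51% higher and 2.03% lower). In gamma delta T cells 2 of 4, Gzma and Gzmb, were higher (6.4% of 6348 genes in either direction, 2.54% higher and 3.86% lower). In NK cells 2 of 7, Gzmc and Gzmf, were lower (3.51% of 9442 genes in either direction, 1.54% higher and 1.97% lower). Of these, Gzmf met the limit of 20 UMIs only through control IgG, with 35 and 0 UMIs, 34 of the 35 in 1 cell. Its place in this count is therefore not read as a result about the members. The numbers of cells behind these 5 values are given below with each gene.

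**Figure D2:**
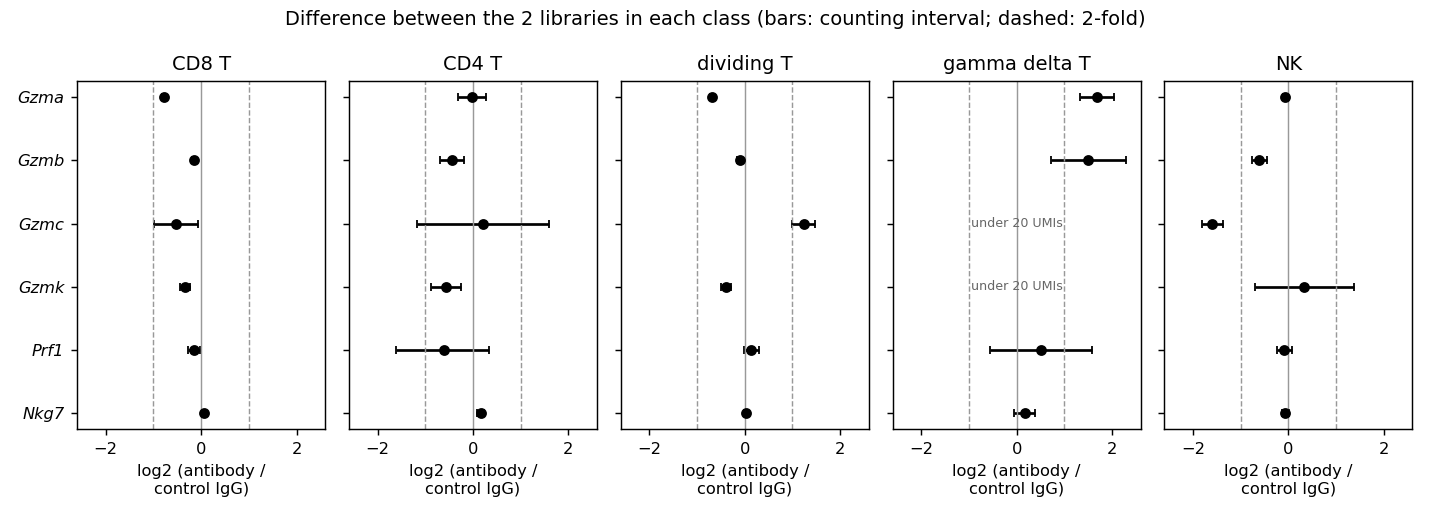
Log2 ratio of antibody over control IgG for 6 members in each class, with counting intervals and dashed lines at 2-fold. Gzma lay at -0.78 in CD8 T cells and 1.69 in gamma delta T cells, and Nkg7 lay within 0.17 of 0 in all 5 classes.

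Gzma encodes granzyme A, the tryptase of the granule. In CD8 T cells its level was 1039 CPM with control IgG (interval 1019 to 1059) and 606 CPM with the antibody (589 to 623), giving a log2 ratio of -0.78 (-0.83 to -0.73). A lower ratio was seen for 3.08% of the genes counted in CD8 T cells. The share of CD8 T cells with a Gzma UMI, after each cell was thinned to 2000 UMIs, was 28.8% (26.8 to 30.9) with control IgG and 21.8% (19.9 to 23.8) with the antibody. Without thinning the shares were 35.9% and 27.8%. In B cells the thinned shares were 1% and 0.82%, and in C1q macrophages 1.88% and 1.28%.

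The same direction was seen in dividing T cells, which held Gzma at 1032 CPM with control IgG and 643 CPM with the antibody, giving a log2 ratio of -0.68 (-0.73 to -0.64). The thinned share of dividing T cells with a UMI was 34.4% and 25.9%. Gzma was unevenly spread over cells. The 101 CD8 T cells with most Gzma UMIs in the control IgG library, 5% of the class, held 61.5% of its Gzma UMIs, and 1 cell held 576 of 10238. Without the 5% of cells highest in the gene in each library the log2 ratio in CD8 T cells was -1.14, so the fold difference was larger without these cells. They were picked by Gzma itself and held 61.5% of its UMIs with control IgG and 70.0% with the antibody.

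NK cells held Gzma at 5673 CPM (5556 to 5791) with control IgG and 5362 CPM (5248 to 5477) with the antibody, giving a log2 ratio of -0.08 (-0.12 to -0.04). The thinned share with a UMI was 72.4% (67.1 to 77.2) with control IgG and 74.1% (69.1 to 78.6) with the antibody, and these intervals overlapped. In the CD4 T class Gzma was at 65.4 and 64.8 CPM, with a log2 ratio of -0.01 (-0.31 to 0.28). The cells with a UMI were nevertheless fewer with the antibody, at 4.62% (3.04 to 6.69) against 9.82% (7.69 to 12.3), and at 2.89% (1.66 to 4.66) against 5.86% (4.20 to 7.92) after thinning. As a log2 ratio the thinned shares gave -1.02, and the summed level gave -0.56 when T cells with 2 or more UMIs of NK markers were left out, an alternative added after the data were seen. Over the 13 alternatives that gave a ratio, the values ran from -1.02 to 0.36, and 8 were below 0. The level with the antibody lay in few cells, since 1 cell held 58 of 171 UMIs and the next 40.

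In gamma delta T cells Gzma was higher with the antibody, at 543 CPM (470 to 623) against 168 CPM (137 to 205), giving a log2 ratio of 1.69. The UMIs were 200 and 100 in all, in 11 and 15 cells. With the antibody the 2 highest cells held 71 and 61 UMIs, and with control IgG they held 47 and 16. The thinned share of gamma delta T cells with a UMI was 8.08% (3.55 to 15.3) with the antibody and 6.38% (2.96 to 11.8) with control IgG, which overlapped. NK markers of the gate summed to 464 CPM with the antibody and 285 CPM with control IgG in this class, and the log2 ratio was 0.51 when T cells with 2 or more of these UMIs were left out, an alternative added after the data were seen.

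Gzmb encodes granzyme B. In CD8 T cells it stood at 1067 CPM (1046 to 1087) with control IgG and 962 CPM (941 to 984) with the antibody, giving a log2 ratio of -0.15 (-0.19 to -0.11). The share of thinned CD8 T cells with a UMI went the other way, at 40.2% (38 to 42.4) and 44.5% (42.2 to 46.9). The share was thus slightly higher with the antibody, with intervals that just overlapped, while the summed level was slightly lower. The shares in CD8 T cells with and without Tcf7 or Lef1, whose mix differed between the libraries, are given below. In dividing T cells Gzmb was at 672 and 624 CPM, with thinned shares of 41% and 41.1%. In CD4 T cells it was at 108 and 79.9 CPM, with thinned shares of 7.81% and 8.50%.

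Foxp3-positive CD4 T cells, regulatory T cells by their marker, were 15 and 11 cells. With control IgG they held 130 of the 363 Gzmb UMIs of CD4 T cells, and with the antibody 30 of 211. In the CD4 T cells without a Foxp3 UMI the Gzmb level was 71.6 and 70.2 CPM, giving a log2 ratio of -0.03 (-0.32 to 0.26). Of the 130 UMIs, 1 cell held 66 and another 28, so the lower Gzmb sum of the CD4 T class with the antibody rested on few cells.

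In NK cells Gzmb was at 578 CPM (541 to 616) with control IgG and 379 CPM (349 to 411) with the antibody, giving a log2 ratio of -0.61 (-0.76 to -0.46). Much of this difference lay in 2 dividing NK cells of the control IgG library, which held 195 and 145 of its 915 UMIs. The 24 and 27 dividing NK cells held Gzmb at 1159 and 349.6 CPM, with thinned shares of 25% and 18.5%, and those 2 cells held 85.6% of the 397 UMIs with control IgG. The 301 and 340 other NK cells held it at 417 and 387 CPM, giving a log2 ratio of -0.11 (-0.29 to 0.07). Thinned shares of NK cells with a UMI were 28.6% and 31.2%. In the gamma delta T class Gzmb counted 23 and 40 UMIs, giving a log2 ratio of 1.49 (0.71 to 2.29). The UMIs lay in 9 and 14 cells, with at most 6 and 10 in 1 cell, and the thinned shares were 2.84% (0.778 to 7.10) and 12.1% (6.42 to 20.2). Over the alternatives run, the ratio was -0.51 under stricter gates and between 1.19 and 3.83 under all others.

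Gzmk encodes granzyme K, a tryptase encoded next to granzyme A. It was counted mostly in T cells. CD8 T cells held it at 169 CPM (161 to 177) with control IgG and 133 CPM (125 to 141) with the antibody, giving a log2 ratio of -0.34 (-0.45 to -0.23). In dividing T cells it was at 155 and 118 CPM (-0.39) and in CD4 T cells at 73.7 and 49.6 CPM (-0.57). Gamma delta T cells held 1 UMI with control IgG and 12 with the antibody, the latter in 5 cells, or 1.68 and 32.6 CPM, giving a log2 ratio of 4.27 (1.52 to 9.69). Their thinned shares were 0 of 141 cells, which allows up to 2.58% by the exact binomial interval, and 2.02% (0.246 to 7.11). NK cells held 16 and 20 UMIs, or 10.1 and 12.6 CPM, with thinned shares of 1.27% and 1.75% that overlapped the B cell share of 1%. Gzmk was spread more evenly than Gzma: the 5% of CD8 T cells highest in it held 33% and 35.1% of its UMIs, and no CD8 T cell had more than 10.

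Gzmc encodes granzyme C and was counted in few cells. It was at 430.5 CPM (399 to 464) in NK cells with control IgG and 143 CPM (125 to 162) with the antibody, giving a log2 ratio of -1.59 (-1.82 to -1.38). The thinned share of NK cells with a UMI was 5.71% (3.42 to 8.88) and 2.62% (1.21 to 4.92), intervals that overlapped. Of 682 Gzmc UMIs in NK cells with control IgG, 634 lay in 9 cells with at least 10 each. With the antibody 188 of 226 lay in 3 such cells. Among dividing NK cells the order was turned, with 248 CPM with control IgG and 519.8 CPM with the antibody, but 1 cell held 129 of the 171 UMIs with the antibody and 2 cells held 44 and 36 of the 85 with control IgG.

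Over all kept cells, 25 cells with control IgG and 13 with the antibody had at least 10 Gzmc UMIs, and they held 78.5% and 79.7% of all Gzmc UMIs. These cells were deep, with medians of 12835 and 13744 UMIs. They were not of 1 lineage: 15 and 9 had at least 2 Cd3 UMIs, 13 and 6 a Cd8b1 UMI, and 14 and 6 had 2 or more UMIs of the NK markers. Gzmb was found in 22 of 25 and 12 of 13 of them, Prf1 in 20 and 11, Gzma in 12 and 9, and Nkg7 in all.

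In dividing T cells Gzmc was higher with the antibody, at 38.6 CPM (34.6 to 43.0) against 16.4 CPM (14.5 to 18.5), giving a log2 ratio of 1.24. Of 332 UMIs with the antibody, 1 cell held 149 and another 62. Leaving out T cells with 2 or more UMIs of NK markers turned the ratio to -0.60. Dividing T cells of the CD8 gate held 215 and 72 Gzmc UMIs, giving a log2 ratio of -0.72, and those that passed neither the CD4 nor the CD8 gate held 32 and 253. In CD8 T cells Gzmc was at 11.3 and 7.82 CPM. CD4 T cells held 11 and 10 UMIs, or 3.27 and 3.79 CPM. Gamma delta T cells held 10 and 1, with 9 of the 10 in 1 cell.

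Gzmd, Gzme and Gzmf, the remaining cluster members, were nearly absent. UMIs of Gzmd and Gzme lay in 1 cell of each library. Most Gzmf UMIs lay in 1 NK cell with control IgG, and further cells of several classes held 1 or 2 each. Gzmd was counted 12 times in NK cells with control IgG, all in 1 cell, and 8 times in CD8 T cells with the antibody, all in 1 cell. Gzme was counted in the same cells, 3 and 14 times. The NK cell had 16151 UMIs, with 217 of Gzmc, 34 of Gzmf, 60 of Gzma, 20 of Gzmb and 11 of Gzmg. The CD8 T cell had 11709 UMIs, with 179 of Gzma, 29 of Gzmb and 0 of Gzmc. The cells thus shared Gzmd and Gzme and differed in Gzmc and Gzmf.

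Gzmf counted 35 UMIs in NK cells with control IgG and 0 with the antibody. The control IgG level was 11.7-fold the level of a 3-count limit in the antibody library. By the counting interval the log2 ratio was -3.17 or lower. However, 34 of the 35 UMIs came from that 1 NK cell. In the other classes Gzmf did not exceed 3 UMIs per library. For 0 UMIs the 3-count limit was 0.892 CPM in CD4 T cells with control IgG and 8.14 CPM in gamma delta T cells with the antibody.

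Counts of these paralogs are uncertain where reads could match more than 1 gene. The last 300 bases of the first listed GENCODE transcripts of Gzmd and Gzme were 84% identical, those of Gzmd and Gzmf 85% and those of Gzmc and Gzmd 48.7%. None of the 210 windows of 91 bases in the last 300 bases of Gzmd occurred without a mismatch in the transcript of Gzme. The promoter windows of Gzmd and Gzme were 93.4% identical, and those of Gzmc and Gzmd 83.4%. Gzmb was distant, with 49.2% promoter identity to Gzmc and 46.1% over the last 300 transcript bases.

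Prf1 encodes perforin, the pore former. In NK cells it was at 386 CPM (356 to 418) with control IgG and 364 CPM (335 to 395) with the antibody, giving a log2 ratio of -0.08 (-0.25 to 0.08). CD8 T cells held it at 123 CPM (116 to 130) and 111 CPM (104 to 118), giving a log2 ratio of -0.15 (-0.27 to -0.02). The thinned shares of cells with a UMI were 39.7% and 43.1% in NK cells and 15.5% in CD8 T cells of both libraries. Summed over each class, Prf1 therefore differed by little more than counting error between the libraries in both killer classes. In CD8 T cells without a UMI of Tcf7 or Lef1, a split described below, the log2 ratio was -0.48 (-0.66 to -0.31). Thinned shares there were 21.0% and 19.8%. In dividing NK cells the log2 ratio was -1.25 (-1.72 to -0.80), and 2 cells held 62.5% of the 144 control IgG UMIs. In CD8 T cells with Tcf7 or Lef1 and in other NK cells it was 0.06 (-0.13 to 0.24) and 0.13 (-0.05 to 0.32). In dividing T cells Prf1 was at 54.7 and 60.0 CPM, and in gamma delta T cells at 30.3 and 43.4 CPM from 18 and 16 UMIs. Dividing T cells that passed neither the CD4 nor the CD8 gate held 51 and 72 Prf1 UMIs. Their log2 ratio was 1.49 (0.95 to 2.04), with thinned shares of 2.13% (0.583 to 5.36) and 8.33% (3.88 to 15.2).

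CD4 T cells held 29 and 15 Prf1 UMIs, or 8.62 and 5.68 CPM. Their thinned shares of 1.35% (0.62 to 2.55) and 0.723% (0.197 to 1.84) overlapped those of B cells, at 0.5% (0.0127 to 2.75) in the control IgG library and at 0 of 122 cells in the antibody library, which allows up to 2.98% by the exact binomial interval. In C1q macrophages they were 0.111% (0.00281 to 0.616) with control IgG, just below the CD4 T interval, and 0 of 235 with the antibody, which allows up to 1.56%. With control IgG the summed level of CD4 T cells (5.77 to 12.4 CPM) also lay above that of C1q macrophages, at 0.265 CPM (0.0320 to 0.956). With the antibody it was 3.18 to 9.37 CPM, against 0 UMIs in C1q macrophages, which allows up to 2.21 CPM. B cell levels reached up to 6.14 and 7.64 CPM and overlapped it. Perforin in CD4 T cells was therefore above the macrophage background by the summed level in both libraries, and by the share with control IgG only. It was not told apart from that of B cells by either measure.

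Nkg7 encodes a granule membrane protein that takes part in granule release, and it differed little between the libraries. CD8 T cells held it at 2059 CPM (2031 to 2088) and 2162 CPM (2130 to 2194), giving a log2 ratio of 0.07. NK cells held it at 2015 and 1919 CPM (-0.07, interval -0.14 to 0.00) and dividing T cells at 1518 and 1543 CPM. In CD4 T cells it was at 919.6 and 1028 CPM, giving a log2 ratio of 0.16 (0.09 to 0.24). After thinning, Nkg7 was found in most cells of each lymphocyte class, with shares of 88.6% and 90.8% in CD8 T cells, 59.8% and 67.1% in CD4 T cells and 54.6% and 60.6% in gamma delta T cells. Gamma delta T cells held it at 707 and 795 CPM. In B cells the shares were 2% and 4.10%. Among the granzymes, only Gzma was found in most thinned cells of a class, the NK cells (72.4% and 74.1%).

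**Figure D3:**
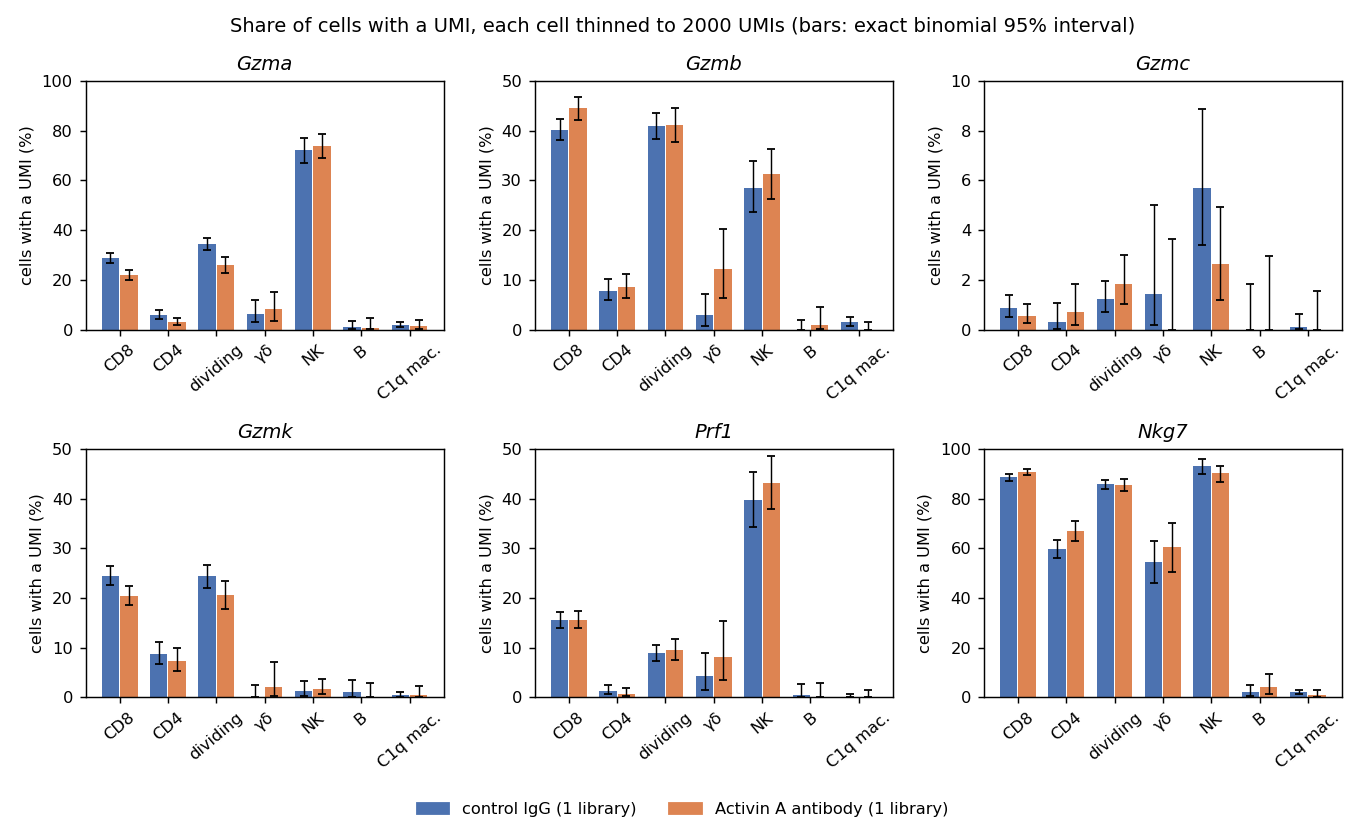
Percentage of cells with at least 1 UMI of 6 members after each cell was thinned to 2000 UMIs, by class and library, with exact binomial 95% intervals and a separate vertical scale in each panel, and with B cells and C1q macrophages as background. Gzma was lower with the antibody in CD8 T cells (28.8% and 21.8%) and overlapped in NK cells (72.4% and 74.1%).

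Within CD8 T cells the Gzma ratio differed more in cells without a UMI of Tcf7 or Lef1, transcription factors of naive and stem-like T cells. By unthinned UMIs, these made up 31.5% (29.4 to 33.5) of the class with control IgG and 40.8% (38.5 to 43.1) with the antibody, where cells were shallower. In them Gzma was at 1568 CPM (1524 to 1612) with control IgG and 598 CPM (571 to 625) with the antibody, giving a log2 ratio of -1.39 (-1.47 to -1.31). Of the 4966 Gzma UMIs behind the control IgG level, 1 cell held 576, and the 32 highest cells held 55.9%. With the antibody 1 cell held 102 of 1914, and the 38 highest cells held 63.5%. In cells with Tcf7 or Lef1 Gzma was at 788 and 611 CPM, giving a log2 ratio of -0.37 (-0.43 to -0.30). With control IgG, Gzma was thus higher in the cells without these factors, and with the antibody both kinds of cells were at about the same level. The thinned shares with a Gzma UMI were 40.2% and 23.0% without Tcf7 or Lef1, and 23.7% and 21.0% with them.

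Gzmb, Gzmk and Prf1 also differed more in the cells without Tcf7 or Lef1. Gzmb was at 1878 and 1325 CPM there, giving a log2 ratio of -0.50 (-0.56 to -0.45), and at 683 and 723 CPM in cells with them (0.08, interval 0.02 to 0.15). Gzmk had log2 ratios of -0.66 and -0.16 in the same order, and Prf1 of -0.48 and 0.06. Nkg7 had a log2 ratio of 0.02 in both. Gzmc went the other way, from few UMIs. It counted 29 and 38 UMIs in cells without these factors, giving a log2 ratio of 0.38 (-0.36 to 1.12). In cells with them it counted 82 and 25 UMIs, giving -1.25 (-1.96 to -0.59). The thinned share with a Gzmb UMI was 31.7% (29.2 to 34.2) and 34.2% (31.4 to 37.2) in cells with Tcf7 or Lef1. It was nevertheless 59.0% and 59.6% in cells without them, so that Gzmb-positive cells were as frequent there and their summed UMIs lower. Median depth was 4626 UMIs with control IgG and 4019 with the antibody in these cells. Thinning was applied to the member counts and not to the split, which was set on unthinned UMIs. The thinned shares therefore cannot show whether shallower cells changed side, and the part of depth in the split was not tested.

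**Figure D4:**
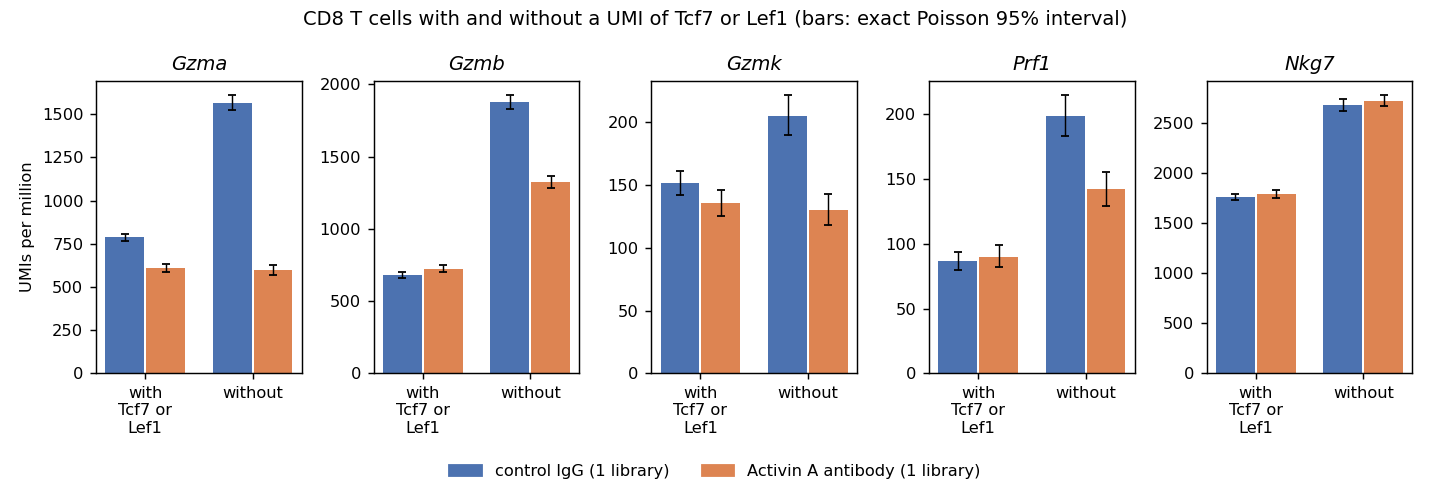
Summed level (CPM, axis from 0) of 5 members in CD8 T cells with and without a UMI of Tcf7 or Lef1, 1 bar per library with exact Poisson 95% intervals. Without these factors Gzma was at 1568 with control IgG and 598 with the antibody, and Nkg7 was nearly level.

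Dividing T cells gave the same pattern for Gzma within the CD8 gate. Dividing CD8 T cells, 948 and 586 in number, held Gzma at 1322 and 727 CPM (-0.86, interval -0.91 to -0.81) and Gzmb at 879 and 794 CPM (-0.15). Dividing CD4 T cells held Gzma at 55.1 and 103 CPM, from 143 and 146 UMIs, with thinned shares of 8.33% and 3.82%. The thinned share and the summed level thus went opposite ways in dividing CD4 T cells. They also did in dividing T cells that passed neither gate, with Gzma at 765 and 863 CPM and thinned shares of 27.1% and 14.8%. With the antibody, 1 of these cells held 378 of 1026 UMIs.

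The granzymes were often counted in the same cells. Among thinned CD8 T cells with control IgG, Gzma was found in 49.8% (46.3 to 53.4) of cells with a Gzmb UMI and in 14.7% (12.7 to 16.9) of cells without one. With the antibody these shares were 32.2% (29.0 to 35.6) and 13.5% (11.4 to 15.8). The intervals of the 2 libraries did not overlap for Gzmb-positive cells and overlapped for Gzmb-negative ones. Prf1 was found in 23.9% and 23.8% of Gzmb-positive CD8 T cells with control IgG and with the antibody, and in 9.86% and 8.93% of Gzmb-negative ones. Gzmk was found in 33.9% and 23.3% of Gzmb-positive cells. In NK cells, Gzma was found in 87.8% and 91.6% of Gzmb-positive and in 66.2% and 66.1% of Gzmb-negative cells.

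Counting the 7 granzymes per thinned cell, CD8 T cells with none were 42.6% with control IgG and 39.8% with the antibody, cells with 1 were 29.0% and 37.4%, and cells with 3 were 8.24% and 4.45%. Cells with 1 granzyme were thus the larger share with the antibody, and cells with 3 the smaller. In dividing T cells, cells with 3 were 9.45% and 6.25%. NK cells had 1 granzyme in 48.9% and 48.4% and 2 in 26.7% and 28.0%. CD4 T cells had none in 80.5% and 82.3%.

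**Figure D5:**
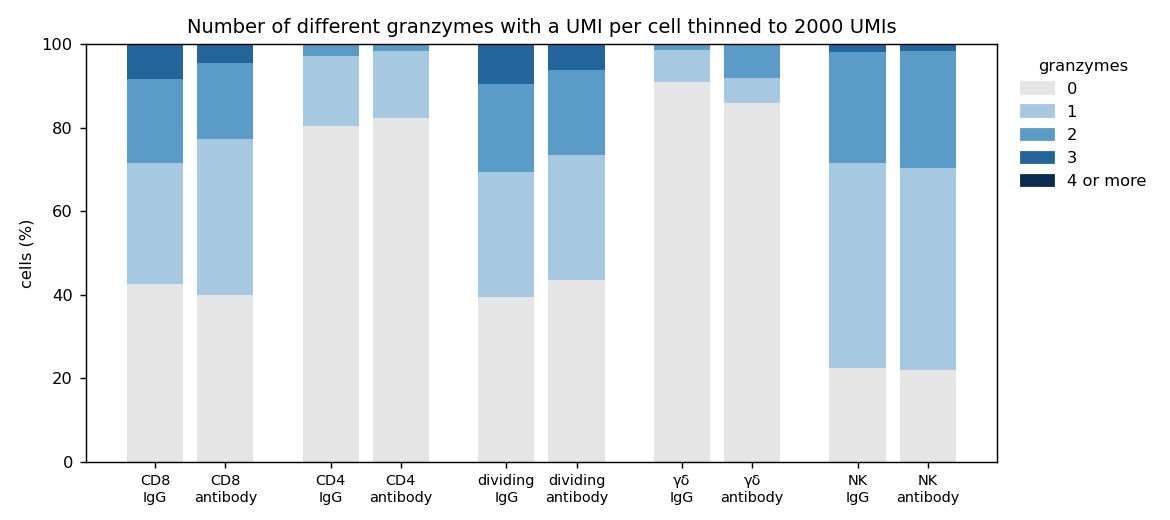
Percentage of cells in which 0, 1, 2, 3 or more of the 7 granzymes had a UMI after thinning to 2000 UMIs, 1 bar per class and library. CD8 T cells with 3 granzymes were 8.24% with control IgG and 4.45% with the antibody, while both NK bars were alike.

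Other genes of the granule pathway were taken as a list of 32 genes. In CD8 T cells 0 of the 29 with at least 20 UMIs passed 2-fold, in CD4 T cells 0 of 28, in dividing T cells 0 of 29 and in gamma delta T cells 0 of 26. In NK cells 1 of 29 did, Serpinb1a, a protease inhibitor that was named after its values were seen and that counted 7 and 30 UMIs. At the shares of all genes past 2-fold given above, 2.85% to 6.4% by class, counts of 0 or 1 do not set the list apart. The median log2 ratio of the list was 0.04 in CD8 T cells, 0.06 in CD4 T cells, 0.03 in dividing T cells, 0.11 in gamma delta T cells and -0.03 in NK cells, beside 0.02 to 0.04 for all genes.

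Srgn encodes serglycin, the proteoglycan that packs granzymes in the granule, and was at 1337 and 1267 CPM in CD8 T cells (-0.08) and 1193 and 1107 CPM in NK cells (-0.11). Ctsc encodes cathepsin C, which activates granzymes by removing their propeptide. It was at 125 CPM in CD8 T cells of both libraries and at 148 and 109 CPM in NK cells (-0.44, interval -0.73 to -0.15). Serpinb9 encodes the inhibitor of granzyme B, and it was at 38.7 and 51.5 CPM in CD8 T cells (0.41, interval 0.21 to 0.62) and at 204 and 209 CPM in NK cells. Gzmm, a further granzyme, counted 106 and 58 UMIs in CD8 T cells (-0.58, interval -1.07 to -0.10).

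Among the 6 transcription factors of the list the median log2 ratio was 0.26 in CD8 T cells and 0.36 in NK cells, and it lay between 0.20 and 0.36 in all 5 classes. Among the 5 death ligands and cytokines it was 0.23 in CD8 T cells, 0.39 in CD4 T cells and 0.15 in dividing T cells, and among the 4 of them with at least 20 UMIs it was 0.10 in gamma delta T cells and -0.29 in NK cells. Genes of these groups named here were chosen after their values were seen. Runx3, which encodes a Runx factor, was at 377 and 483 CPM in CD8 T cells (0.36, interval 0.29 to 0.42) and at 308 and 373 CPM in NK cells. Whether its product binds the promoters printed above was not tested. Tbx21, which encodes T-bet, was at 147 and 203 CPM in CD8 T cells (0.47) and at 265 and 391 CPM in NK cells (0.56). Fasl, a death ligand that acts beside the granule pathway, was at 57.0 and 81.8 CPM in CD8 T cells (0.52). All 3 had higher levels with the antibody in CD8 T cells and were chosen with this known. Of the same groups, Prdm1 (-0.02), Tnf (-0.003) and Lta (0.23) did not differ beyond counting error there.

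The genes whose levels were most like those of a member were found by Pearson r of log2(CPM + 10) over the 10 profiles of 5 classes in 2 libraries, among 11234 genes. The 10 points share libraries and depth, so r is a description. Gzma was most like Nup210 (r = 0.95), Itgax (0.93) and Cd244a (0.93), and Prf1 most like Dapk2 (0.96), Itgax (0.95) and Fbxl2 (0.95). Gzmb was most like Serp2 (0.96), Ptpn6 (0.94) and Armc10 (0.90), and Gzmc most like Sft2d3 (0.97), Prr5 (0.96) and Ggct (0.96). Gzmk was most like Twf2, Apobec2 and Pdxk (all 0.95). Nkg7 was most like Ccl3 (0.98), Ccl4 (0.97) and Chrne (0.92), the first 2 of which encode chemokines of activated cytotoxic cells.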

How the data were processed

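The deposited matrices give unnormalized UMI counts for each gene in each barcode, made by the authors with Cell Ranger. The file headers name version 4, and the submitters' processing notes name version 7.0.1 and the build mm10. The labels and the study's methods name different 10x 3′ chemistries. No cells had been removed. A barcode counted as a cell if it had 1000 to 8500 genes, a total of 1000 to 100000 UMIs and no more than 10% of them mitochondrial. Doublets were not removed and no caller was run, but the 5% deepest cells were left out as an alternative.

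Classes were gated on raw UMIs of marker genes, using no member gene. Cells with 3 or more B cell UMIs, or 5 or more myeloid or stromal UMIs, were removed first. T cells had at least 2 UMIs summed over Cd3d, Cd3e and Cd3g, and dividing T cells also at least 3 UMIs summed over 7 mitosis genes. Among other T cells, gamma delta T cells had Trdc without Cd4 or Cd8b1, CD8 T cells had Cd8a or Cd8b1 without Cd4 or Trdc, and CD4 T cells had Cd4 without Cd8a, Cd8b1 or Trdc. NK cells had at most 1 Cd3 UMI and at least 2 UMIs summed over Ncr1, Klrb1c, Klre1, Klra8 and Klra4. Levels are summed UMIs per 1000000 with exact Poisson intervals, and ratios carry conditional binomial intervals. Genes with at least 20 UMIs in a class over both libraries entered the counts past 2-fold. For shares of cells (Clopper-Pearson intervals) each cell was thinned once to 2000 UMIs (seed 1), leaving out shallower cells: 39 and 46 CD8 T, 16 and 10 CD4 T, 0 and 11 dividing T, 4 and 6 gamma delta T, and 10 and 24 NK cells. Haemoglobin UMIs put free RNA at 0 to 2.19% of a class's UMIs, but only 0 to 3 such UMIs were counted per class and library, so these estimates are loose. Free RNA held Gzma at 290 CPM with control IgG and 304 CPM with the antibody, and Nkg7 at 475 and 540 CPM.

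Levels of all members were computed in every class. Of the pathway list, genes with at least 100 UMIs and past 2-fold were to be named, and Srgn, Ctsc, Serpinb9 and Gzmm in any case. The 3 most similar genes were named per member, among genes with at least 100 UMIs over the profiles. The members, lists and gates were chosen with earlier results of these data known. Promoters were read from RefSeq windows (GRCm38.p6), and of the gene identifiers 99.6% matched GENCODE M21. Protein sequences were not used here. A split of gamma delta T cells by 1 marker list is not reported here. Scripts were tested on simulated counts and run with Python 3.11.15, numpy, scipy and pandas. Alternatives covered gates, limits, scaling, free RNA, deep cells and the measure itself.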

Additional observations from a re-analysis of the deposited data

How the results depend on the processing

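Leaving out a replicate was not possible with 1 library per group. No paired analysis was possible because there is 1 library in each arm. Over 28 log2 ratios and 14 alternative settings, 361 values were recomputed, and 13 changed sign where the counting interval had lain on 1 side of 0. Lower Gzma in CD8 T and dividing T cells, lower Gzmk in CD8 T cells and lower Gzmc in NK cells kept their direction under every setting that gave a ratio. For Gzmc in NK cells, leaving out the 5% of cells highest in the gene gave none, because those cells held 100% of its UMIs with the antibody. Whether lower Gzmc holds outside these few cells was thus not tested. The cause of the changes below was not tested.

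All values below are log2 ratios of antibody over control IgG. With stricter gates, Gzmb was -0.079 in CD8 T, -0.011 in CD4 T and -0.51 in gamma delta T cells, Gzma 1.12 in gamma delta T cells and Gzmc -1.85 in NK cells. Without removing cells for other lineages, NK cells had Gzma at -0.42, Gzmb -0.88, Gzmc -1.89, Prf1 -0.35 and Nkg7 -0.39, dividing T cells had Gzma at -0.60 and CD8 T cells Nkg7 at 0.10. With dividing cells in their T class, Gzma was -0.85 in CD8 T and 1.19 in gamma delta T cells. Without T cells carrying NK markers (added after the data were seen), Gzma was -0.84 in CD8 T, -0.82 in dividing T and 0.51 in gamma delta T cells, and Gzmc -0.60 in dividing T cells. With the mean CPM of cells, Gzmb was -0.086 in CD8 T, 0.018 in CD4 T and -0.38 in NK cells, Gzma -0.61 in dividing T and -0.012 in NK cells, and in NK cells Gzmc was -1.91 and Prf1 0.11. Without the 5% deepest cells, Gzma was -0.91 in CD8 T, -0.63 in dividing T and 0.11 in NK cells, Gzmb 0.25 in CD4 T, 2.37 in gamma delta T and 0.067 in NK cells, and in NK cells Gzmc was -2.44, Prf1 0.26 and Nkg7 0.013.

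Without the 5% of cells highest in the gene, Gzma was -1.14 in CD8 T, -1.05 in dividing T, 0.19 in gamma delta T and 0.0057 in NK cells, Gzmb -0.024 in CD8 T, -0.14 in CD4 T, 3.83 in gamma delta T and -0.063 in NK cells, and Prf1 0.13 in NK cells. By the share of thinned cells, Gzma was -0.40 in CD8 T, -0.41 in dividing T, 0.34 in gamma delta T and 0.033 in NK cells. Gzmb was then 0.15 in CD8 T, 0.12 in CD4 T, 0.0023 in dividing T and 0.13 in NK cells, Gzmc 0.57 in dividing T and -1.12 in NK cells, Prf1 0.0032 in CD8 T and 0.12 in NK cells, and Nkg7 0.035 in CD8 T cells. With the mix of cells as in control IgG, CD8 T cells had Gzmb at -0.22 and Nkg7 at 0.022, and with the other CPM denominator Nkg7 at 0.031. Leaving out barcodes shared by the libraries (added after the data were seen), subtracting free RNA, scaling to the median gene and lower cell limits moved no ratio outside its counting interval, except that Nkg7 in dividing T cells was -0.015 when scaled to the median gene.

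Of the pathway list, genes past 2-fold with at least 5 UMIs were 1 of 30 in CD8 T (9.92% of all genes), 1 of 29 in CD4 T (10.8%), 1 of 30 in dividing T (10.9%), 2 of 29 in gamma delta T (17.3%) and 2 of 30 in NK cells (10.7%). Past 1.5-fold they were 0 of 29 in CD8 T (10.1%), 3 of 28 in CD4 T (13.2%), 1 of 29 in dividing T (9.93%), 6 of 26 in gamma delta T (22.8%) and 3 of 29 in NK cells (13.5%).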
